A study of Homo sapiens with 6 samples.

Results

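NECTIN4, EPCAM, PSCA, FOLR1 and MSLN are 5 genes for cell surface proteins that antibody-drug conjugates and related antibody-toxin agents have been directed at, in bladder cancer or in other solid tumours. These 5 genes, and the gene lists set beside them below, were chosen with earlier results of these data known. The 5 were taken by gene symbol, by a rule that sets no threshold on measured values. All 5 were found in the deposited table of 20289 genes. Their RNA was sequenced in 6 libraries whose labels name T24, an established human bladder cancer cell line. In the LINC00665 libraries (n = 3) the cells had received, by lipofection, a pcDNA3.1 plasmid carrying the long non-coding RNA LINC00665 for overexpression. In the Vector libraries (n = 3) the treatment is labelled as Vector plasmids and the genotype as control. Both labels share the T24 line and serum-containing RPMI medium, and the series' design text names 3 independent experiments, with the stated interest in lymph node metastasis of bladder cancer.

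An antibody-drug conjugate is an antibody joined to a cell-killing drug. It binds its target protein on the cell surface, is taken up, and releases the drug inside the cell, commonly in the lysosome, so the target must be present on the surface. Nectin-4, encoded by NECTIN4, is a cell adhesion protein and the target of enfortumab vedotin, a drug used in urothelial cancer. EpCAM is an epithelial adhesion protein, and PSCA, folate receptor alpha (FOLR1) and mesothelin (MSLN) are held in the membrane by a glycosylphosphatidylinositol (GPI) lipid anchor. RNA levels are reported here, and surface protein was not measured.

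The libraries held 17289788 to 22725687 expected counts each, and p-values rest on the spread between these libraries. A check for sample mix-ups found that 3 of 6 libraries differed from the line on their label. Without those libraries the labels could not be compared. Groups are therefore called by their labels, and an effect of the line and one of the plasmid cannot be told apart. The LINC00665 gene itself had 0 rows in the table, so its overexpression was not checked. Of 13552 genes that passed the filter on low counts, 8611 (63.5%) differed between the labels at an adjusted p under 0.05 (edgeR quasi-likelihood test, Benjamini-Hochberg). LINC00665 libraries were higher for 4634 genes (34.2%) and lower for 3977 (29.3%), and the median log2 fold change of all tested genes was 0.03. With scaling by total counts alone that median was -0.13, so shifts of that size depend on the scaling. The 15 urothelial markers summed to 6113 to 6975 counts per 1000000 (CPM) in LINC00665 libraries and 23.2 to 29.4 CPM in Vector libraries. Of these markers KRT20 was at 0 in every library, and UPK3A and GRHL3 were also at 0 in Vector libraries. KRT19 (mean 2652 CPM) and KRT7 (mean 2252 CPM) made up most of the LINC00665 sum. KRT20, UPK1A and UPK3A did not pass the filter on low counts. The 16 kidney tubule markers summed to 80.1 to 97.8 CPM in LINC00665 libraries and 405 to 568 CPM in Vector libraries, with UMOD and SLC12A1 at 0 in all. Of the 8 tested kidney markers 5 were lower and 3 higher in LINC00665 libraries. KCNJ15 (52.4 CPM in LINC00665 libraries and 0.165 CPM in Vector libraries) and LHX1 (17.5 CPM in LINC00665 libraries and 0.354 CPM in Vector libraries) were among the higher ones and made up most of the LINC00665 sum. The part of these differences in the results below was not tested.

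Transcripts of EPCAM, MSLN and NECTIN4 were present in all 3 LINC00665 libraries and at or near 0 in the Vector libraries. PSCA was low under both labels, with overlapping values. FOLR1 had a few counts in LINC00665 libraries and none in Vector libraries. In the LINC00665 libraries EPCAM stood far above the others, and on the length-scaled FPKM values the 5 genes followed one order with no overlap between neighbours. On the CPM values MSLN and NECTIN4 overlapped. In bulk RNA, fewer cells of a type and less RNA per cell cannot be told apart.

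Of the 5 genes, 4 passed the filter, and 3 of them were higher in LINC00665 libraries with none lower. That count stands beside the 34.2% of all tested genes called higher. EPCAM, MSLN and NECTIN4 had no Vector library over the filter level of 0.511 CPM, so they entered the test through the label in which they were high, and their direction was tied to the filter. All 3, and not PSCA, had every LINC00665 library above every Vector library, which held for 33.8% of all tested genes. With 3 libraries against 3, the exact two-sided permutation test of a single gene cannot give a p under 0.1, and each of EPCAM, MSLN, NECTIN4 and FOLR1 gave 0.1.

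**Figure D1:**
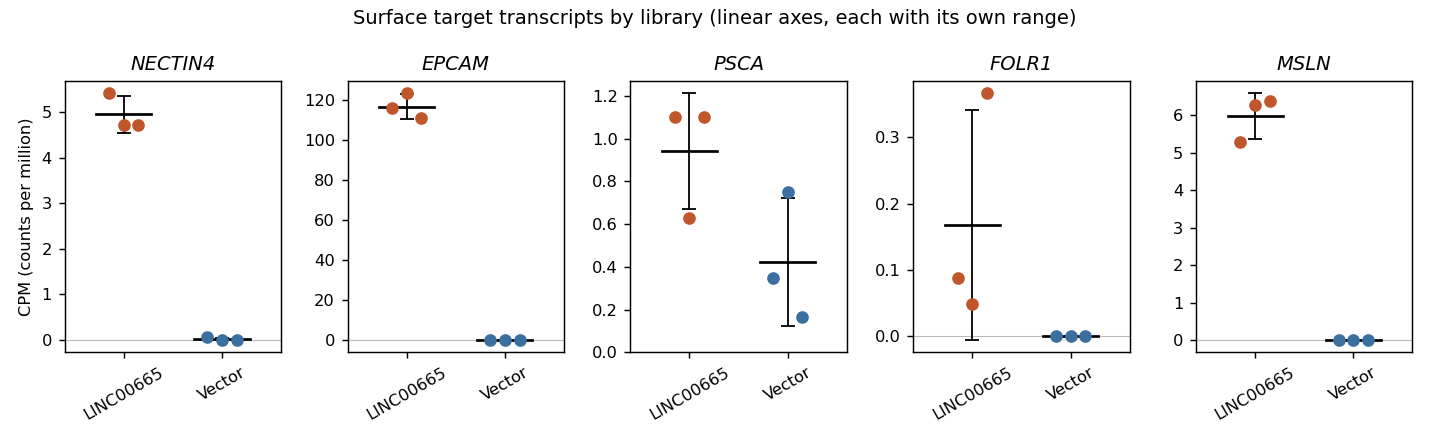
Level of each of the 5 surface target genes in CPM by library, LINC00665 at left and Vector at right in each panel, each panel with its own linear axis. Points are libraries, bars are means and error lines are 1 SD (n = 3). EPCAM lies between 111 and 123 CPM in LINC00665 libraries and at or below 0.30 CPM in Vector libraries, while the PSCA values of the labels overlap.

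NECTIN4 (ENSG00000143217) lies at chr1:161070995-161089599 of GRCh38 in GENCODE v29, on the minus strand, with 2 annotated transcripts. It had 123, 98 and 90 expected counts in LINC00665 libraries 1 to 3, against 1, 0 and 0 in Vector libraries 1 to 3. Scaled to library size these were 5.41, 4.73 and 4.71 CPM in LINC00665 libraries, against 0.050, 0 and 0 CPM in Vector libraries. The LINC00665 libraries lay close together, and a single read carried the whole Vector signal. The ratio of the summed counts was 276, with an exact 95% binomial interval of 49.2 to 10900. In edgeR the log2 fold change was 7.81 ± 0.55 (SE), with an adjusted p of 7.7e-06. Without Vector replicate 1, which holds that read, the fitted value was 9.66 and no Vector count was left. The gene AL591806.1 overlaps NECTIN4 on the opposite strand, and reads of the pair cannot be told apart, since the use of strand in counting is not given in the sources used here.

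Of the RefSeq promoter table (GRCh38.p14), which holds 250 bases before to 50 bases after a gene's start, an entry was matched for 1 of the 5 genes, NECTIN4. It is shown with the entries of 3 family members that were expressed under both labels. Any link between these sequences and the RNA levels was not tested. NECTIN1, also expressed under both labels, is not among the entries shown, so they cover only part of the family. All are given 5′ to 3′ on the gene's own strand: NECTIN4 at chr1:161089509-161089808 (minus strand), NECTIN2 at chr19:44846047-44846346 (plus strand), NECTIN3 at chr3:111071566-111071865 (plus strand) and PVR at chr19:44643660-44643959 (plus strand). Capitals mark the motif matches described next.
NECTIN4: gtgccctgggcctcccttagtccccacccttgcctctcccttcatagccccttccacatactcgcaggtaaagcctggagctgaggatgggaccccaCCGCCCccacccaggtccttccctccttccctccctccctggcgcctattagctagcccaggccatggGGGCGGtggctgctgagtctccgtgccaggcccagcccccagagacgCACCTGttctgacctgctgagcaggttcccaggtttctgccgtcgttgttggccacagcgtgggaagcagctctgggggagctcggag
NECTIN2: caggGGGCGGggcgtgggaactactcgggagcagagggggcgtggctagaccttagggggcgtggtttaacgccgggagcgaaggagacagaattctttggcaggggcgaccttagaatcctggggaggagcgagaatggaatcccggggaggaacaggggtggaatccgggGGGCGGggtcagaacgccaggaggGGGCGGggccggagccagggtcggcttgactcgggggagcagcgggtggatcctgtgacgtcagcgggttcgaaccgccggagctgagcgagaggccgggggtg
NECTIN3: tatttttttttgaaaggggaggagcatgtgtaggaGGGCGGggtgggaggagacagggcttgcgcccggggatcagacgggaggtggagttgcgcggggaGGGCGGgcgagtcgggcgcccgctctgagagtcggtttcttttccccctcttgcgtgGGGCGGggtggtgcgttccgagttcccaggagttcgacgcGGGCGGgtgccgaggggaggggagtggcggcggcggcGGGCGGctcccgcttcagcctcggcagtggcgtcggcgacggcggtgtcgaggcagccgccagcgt
PVR: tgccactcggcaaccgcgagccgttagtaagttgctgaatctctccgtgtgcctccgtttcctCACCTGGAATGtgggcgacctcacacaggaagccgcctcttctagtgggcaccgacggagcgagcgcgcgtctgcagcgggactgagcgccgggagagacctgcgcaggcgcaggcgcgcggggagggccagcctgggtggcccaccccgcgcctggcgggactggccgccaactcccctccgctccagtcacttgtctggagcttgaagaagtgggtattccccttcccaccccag

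The NECTIN4 window held 10 CpG dinucleotides, fewer than the 26 of NECTIN2, the 36 of NECTIN3 and the 27 of PVR, at a similar G and C content of 65.7% against 68.3%, 70.3% and 67.3%. Its observed CpG count was 0.318 of that computed from its C and G content, against 0.888 for NECTIN2, 1.09 for NECTIN3 and 0.795 for PVR. The median over all 35116 promoter windows was 0.579, and 34.3% of them lay at or below the NECTIN4 value. Both strands were searched for 6 short motifs. The GC box (GGGCGG, in 45% of all windows) occurred 2 times in NECTIN4, 3 times in NECTIN2 and 5 times in NECTIN3. The E-box bound by ZEB proteins (CAGGTG, in 20.6% of all windows) occurred on the minus strand of NECTIN4, read there as CACCTG from 38 bases before the start, and once in PVR. In PVR it shared 1 base with a TEAD motif (GGAATG, in 14.0% of all windows). The grainyhead motif (AACCNGTT, in 1.73% of all windows), the AP-1 motif (TGANTCA, in 7.71%) and the GATA motif (AGATAA, in 10.3%) had no match in these 4 windows. A match describes letters and not binding.

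Nectins join neighbouring cells, with afadin (AFDN) linking them to actin, and PVR is a related receptor that also serves poliovirus. Of 8 genes in the nectin family and partner list, 7 were tested, of which 6 were higher and 1 was lower in LINC00665 libraries, with a median log2 fold change of 1.17 against 0.03 over all tested genes. All 7 were called, beside 63.5% of all tested genes, and 1 of the 6 had no Vector library over the filter level. NECTIN1 averaged 149 ± 20.7 CPM in LINC00665 libraries and 6.82 ± 1.68 CPM in Vector libraries (SD, n = 3 each), with a log2 fold change of 4.61 ± 0.24 (SE) and an edgeR adjusted p of 1.4e-06. NECTIN2 averaged 147 ± 7.55 CPM in LINC00665 libraries and 85.7 ± 26.7 CPM in Vector libraries, a log2 fold change of 0.94. NECTIN3 went the other way, at 11.2 ± 1.85 CPM in LINC00665 libraries and 30.1 ± 7.73 CPM in Vector libraries, a log2 fold change of -1.27 ± 0.23 (SE) with an edgeR adjusted p of 0.0015. PVR had a log2 fold change of 1.17 and AFDN of 0.70. On the length-scaled FPKM values, NECTIN4 was the lowest of the 5 nectin family transcripts under both labels. In LINC00665 libraries it averaged 1.43 FPKM, against 5.11 for NECTIN3, 36.7 for NECTIN1, 68.4 for NECTIN2 and 76.6 for PVR, and the last pair overlapped.

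**Figure D2:**
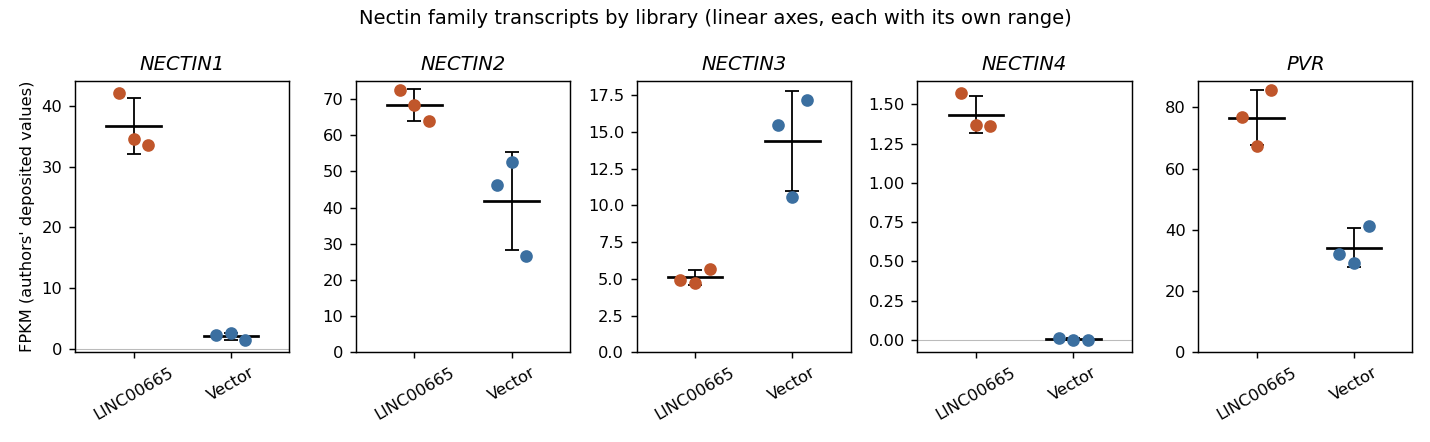
FPKM values of NECTIN1 to NECTIN4 and PVR by library, LINC00665 left of Vector, on linear axes that differ between panels, with means (bars) and 1 SD (error lines, n = 3). NECTIN3 alone is lower in LINC00665 libraries, at 4.73 to 5.67 FPKM against 10.6 to 17.1 FPKM in Vector libraries.

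On the same chromosome, the nearest protein-coding genes on either side of NECTIN4 were ARHGAP30, 1025 bases away, and KLHDC9, 8762 bases away. KLHDC9 averaged 1.41 CPM in LINC00665 libraries and had 0 counts in Vector libraries, which makes it at least 26-fold higher in LINC00665 libraries against a floor of 3 counts over the group. ARHGAP30 averaged 1.02 CPM in LINC00665 libraries and 0.613 CPM in Vector libraries and missed the threshold (edgeR adjusted p = 0.084).

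EPCAM (ENSG00000119888) lies at chr2:47345158-47387601 of GRCh38, on the plus strand, with 6 annotated transcripts. Besides joining epithelial cells, its protein is cut by proteases to release an intracellular part that signals with beta-catenin. It had 2632, 2553 and 2114 expected counts in LINC00665 libraries 1 to 3, against 6, 0 and 2 in Vector libraries 1 to 3. These correspond to 115.8, 123.1 and 110.6 CPM in LINC00665 libraries, against 0.30, 0 and 0.11 CPM in Vector libraries. All LINC00665 libraries were high within a coefficient of variation of 5.4%, and 1 Vector library had no read. The log2 fold change was 9.77 ± 0.44 (SE), with an edgeR adjusted p of 7.0e-07. Leaving out Vector replicate 1, which holds 6 of the 8 Vector counts, gave 11.01. EPCAM had a higher FPKM than 94.7% of the genes in the table in LINC00665 libraries and than 35.4% in Vector libraries. The small RNA genes MIR559, RF00017 and RN7SKP119 are annotated inside its span.

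Of the 18 genes listed as EPCAM relatives, partners and proteases, 17 were tested, with 10 higher, 4 lower and 3 not past the threshold, and a median log2 fold change of 1.26. The share called was 82.4%, beside 63.5% over all tested genes, and 3 of the 10 had no Vector library over the filter level. CLDN7, the claudin that binds EpCAM, averaged 201 ± 13.0 CPM in LINC00665 libraries and 0.111 ± 0.062 CPM in Vector libraries, a log2 fold change of 10.94. The membrane protease matriptase (ST14) had a log2 fold change of 10.74 and the beta-secretase BACE2 of 3.79. The genes that were lower included ADAM10, a sheddase, at 69.3 ± 5.92 CPM in LINC00665 libraries and 198 ± 41.3 CPM in Vector libraries, and NCSTN, a gamma-secretase subunit, with a log2 fold change of -1.27. CTNNB1, which encodes beta-catenin, had a log2 fold change of -0.67, and its partner LEF1 of -0.97. ADAM17, another sheddase, averaged 67.4 CPM in LINC00665 libraries and 62.2 CPM in Vector libraries and missed the threshold (edgeR adjusted p = 0.15).

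CALM2, a calmodulin gene 168557 bases from EPCAM, averaged 202 CPM in LINC00665 libraries and 199 CPM in Vector libraries and missed the threshold (edgeR adjusted p = 0.27).

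MSLN (ENSG00000102854) lies at chr16:760762-768865 of GRCh38, on the plus strand, with 8 annotated transcripts and no annotated gene overlapping it. Its precursor is cut by furin-like proteases into a shed part and the membrane-bound mesothelin that antibodies recognise. It had 120, 130 and 122 expected counts in LINC00665 libraries 1 to 3, against 0, 0 and 0 in Vector libraries 1 to 3. In LINC00665 libraries these were 5.28, 6.27 and 6.38 CPM, with a mean of 5.98 ± 0.606 (SD, n = 3). Every Vector library was at 0, so the fold is a bound: MSLN was at least 110-fold higher in LINC00665 libraries, against a floor of 3 counts over the group. The edgeR adjusted p was 2.2e-05, and the fitted fold change is left out because it depends on the prior count.

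Mesothelin binds the mucin CA125, encoded by MUC16. MUC16 had 161, 89.5 and 125 CPM in LINC00665 libraries, against 0.499, 3.70 and 0.274 CPM in Vector libraries. The labels did not overlap, and the log2 fold change was 6.57 ± 0.78 (SE) with an edgeR adjusted p of 0.00015. Without Vector replicate 2, the highest of the Vector libraries, it was 8.46. Of the 8 genes listed as mesothelin relatives and partners, 5 were tested, with 3 higher, 0 lower and a median log2 fold change of 2.01. The share called, 60%, lay near the 63.5% over all tested genes, and 1 of the 3 had no Vector library over the filter level. Among the furin-like proteases, PCSK5 was at least 164-fold higher in LINC00665 libraries, with 0 Vector counts, and PCSK6 had a log2 fold change of 2.01. FURIN averaged 113 ± 6.41 CPM in LINC00665 libraries and 74.9 ± 36.2 CPM in Vector libraries and missed the threshold (edgeR adjusted p = 0.088). It passed without Vector replicate 1 (0.048), without Vector replicate 3 (0.033) and with DESeq2 (0.046). The relative MSLNL, 563 bases from MSLN, had 0 counts in all 6 libraries, while CIAO3 on the other side averaged 18.2 CPM in LINC00665 libraries and 22 CPM in Vector libraries (edgeR adjusted p = 0.64). Mesothelial cells also carry mesothelin, and their 10 markers summed to 188 to 238 CPM in LINC00665 libraries and 413 to 1337 CPM in Vector libraries. TM4SF1 made up most of both sums, at 179 ± 26.8 CPM in LINC00665 libraries and 728 ± 473 CPM in Vector libraries. Of the 6 tested, 3 were higher (PDPN, CALB2 and WT1) and 3 lower (TM4SF1, BNC1 and LRRN4). ITLN1 was at 0 in all libraries.

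PSCA (ENSG00000167653) lies on chromosome 8 at 142670308 to 142682724 of GRCh38, on the plus strand, with 4 annotated transcripts. Prostate stem cell antigen is a small surface protein of the LY6 family that the normal urothelium also carries. It had 25, 13 and 21 expected counts in LINC00665 libraries 1 to 3, against 7, 13 and 3 in Vector libraries 1 to 3. Scaled to library size these were 1.10, 0.627 and 1.10 CPM in LINC00665 libraries, against 0.350, 0.752 and 0.165 CPM in Vector libraries. LINC00665 replicate 2 lay below Vector replicate 2, so the labels overlapped. The log2 fold change was 1.32 ± 0.54 (SE), with an edgeR adjusted p of 0.063, and the exact two-sided permutation test gave p = 0.2. Without Vector replicate 2 the log2 fold change was 1.996 with an adjusted p of 0.015, and limma-voom on all libraries gave 1.46 with 0.042. Over the 14 alternatives in which PSCA was tested the adjusted p ran from 0.015 to 0.17. JRK overlaps PSCA on the opposite strand, which leaves counts this low uncertain.

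Of the 15 listed relatives in the LY6 and uPAR family, 10 were tested, and 8 were higher and 0 lower in LINC00665 libraries, with a median log2 fold change of 2.73. The share called was 80.0%, beside 63.5% over all tested genes, and 2 of the 8 had no Vector library over the filter level. LYPD6B averaged 12.5 ± 1.01 CPM in LINC00665 libraries and 0.106 ± 0.046 CPM in Vector libraries, a log2 fold change of 6.93. LYPD3, a surface protein of stratified epithelium that has itself been an antibody-drug target, averaged 42.8 ± 7.39 CPM in LINC00665 libraries and 0.639 ± 0.181 CPM in Vector libraries, a log2 fold change of 6.23. LY6E averaged 315 ± 64.2 CPM in LINC00665 libraries and 49.0 ± 3.30 CPM in Vector libraries, a log2 fold change of 2.85. CD59, which blocks complement on the cell surface, had a log2 fold change of 1.33, while the urokinase receptor PLAUR averaged 182 ± 34.95 CPM in LINC00665 libraries and 160 ± 81.0 CPM in Vector libraries and missed the threshold (edgeR adjusted p = 0.44). LY6K, 17387 bases from PSCA, had a log2 fold change of 0.70 and an edgeR adjusted p of 0.025. That call was lost with total-count scaling (adjusted p = 0.067) and without LINC00665 replicate 2 (0.11), LINC00665 replicate 3 (0.073) or Vector replicate 1 (0.058). ARC, 55836 bases away on the other side, averaged 17.7 CPM in LINC00665 libraries and 0.200 CPM in Vector libraries, a log2 fold change of 6.60, which was 7.45 without Vector replicate 3.

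FOLR1 (ENSG00000110195) lies at chr11:72189558-72196323 of GRCh38, on the plus strand, with 4 annotated transcripts and AP000812.1 overlapping it on the opposite strand. Folate receptor alpha brings folate into the cell by endocytosis and is the target of mirvetuximab soravtansine, a drug used in ovarian cancer. It had 2, 1 and 7 expected counts in LINC00665 libraries 1 to 3, against 0, 0 and 0 in Vector libraries 1 to 3. The LINC00665 values were 0.088, 0.048 and 0.366 CPM, and most of the signal came from replicate 3. FOLR1 did not pass the filter and has no test in the main fit. Set against a floor of 3 counts over the Vector group, its 10 summed LINC00665 counts gave a ratio of 2.96. That ratio takes the 10 counts as exact, and 7 of them came from replicate 3, so it is not a firm lower bound. With no filter, and 16961 genes tested, edgeR gave an adjusted p of 0.05002, just over the threshold.

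The other folate receptors FOLR2 and FOLR3, which flank FOLR1 at 20278 and 49666 bases, had 0 counts in all 6 libraries. Folate also enters cells through the reduced folate carrier SLC19A1 and the proton-coupled transporter SLC46A1. SLC46A1 averaged 86.8 ± 14.9 CPM in LINC00665 libraries and 43.7 ± 10.6 CPM in Vector libraries, a log2 fold change of 1.15 ± 0.21 (SE) with an edgeR adjusted p of 0.0015. SLC19A1 averaged 47.2 ± 2.62 CPM in LINC00665 libraries and 55.8 ± 6.76 CPM in Vector libraries and missed the threshold (edgeR adjusted p = 0.65). Of the 18 genes listed for folate uptake and use, 14 were tested, with 3 higher, 6 lower and 5 not past the threshold, and a median log2 fold change of -0.38. The share called, 64.3%, lay near the 63.5% over all tested genes. Folate is kept in the cell by polyglutamate chains, which FPGS adds and GGH removes. FPGS was higher in LINC00665 libraries, with a log2 fold change of 0.82, and GGH lower, at 10.9 ± 0.859 CPM in LINC00665 libraries and 57.3 ± 7.26 CPM in Vector libraries, a log2 fold change of -2.22 ± 0.17 (SE). SHMT1, an enzyme of folate metabolism, had a log2 fold change of -1.09.

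On the length-scaled FPKM values the order in LINC00665 libraries was EPCAM, MSLN, NECTIN4, PSCA and FOLR1. EPCAM averaged 75.5 ± 4.19 FPKM, 25.0 times the 3.02 ± 0.404 FPKM of MSLN. MSLN in turn was 2.11 times the 1.43 FPKM of NECTIN4, which was 1.44 times the 0.997 FPKM of PSCA. FOLR1 came last at 0.170 FPKM, and PSCA was 5.86 times that level. No neighbours in this order overlapped between their lowest and highest libraries. In Vector libraries the order differed, with PSCA first at 0.477 FPKM, then EPCAM at 0.087 and NECTIN4 at 0.0033, and MSLN and FOLR1 at 0, and neighbours overlapped there. PSCA was thus the most abundant of the 5 transcripts under the Vector label and the last but one under the LINC00665 label. The spread between LINC00665 libraries, as a coefficient of variation, was 5.4% for EPCAM, 8.11% for NECTIN4 and 10.1% for MSLN.

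PSCA, FOLR1 and MSLN need the GPI anchor, which is built in the endoplasmic reticulum and joined to the protein by a transamidase. All 29 genes listed for its synthesis and attachment were tested, with 2 higher, 10 lower and 17 not past the threshold. The share called was 41.4%, against 63.5% over all tested genes, and the median log2 fold change was -0.27. PIGG, which adds a side group to the anchor, averaged 23.2 ± 0.896 CPM in LINC00665 libraries and 92.4 ± 4.01 CPM in Vector libraries, a log2 fold change of -1.83. PIGK, the catalytic subunit of the transamidase, had a log2 fold change of -1.64. PIGA, part of the enzyme that starts the anchor, averaged 41.4 ± 2.19 CPM in LINC00665 libraries and 16.97 ± 3.43 CPM in Vector libraries, a log2 fold change of 1.45, and GPAA1, another transamidase subunit, had 0.63.

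The 5 genes were set beside 49 other genes whose proteins have been targets of antibody-drug conjugates in solid tumours. Of these, 36 were tested, with 23 higher, 4 lower and 9 not past the threshold, and a median log2 fold change of 1.43. The share called was 75.0%, beside 63.5% over all tested genes, and 7 of the 23 had no Vector library over the filter level. In a refit limited to the 11285 genes with a mean of at least 1 CPM under both labels, 20 of them were tested and 12 were called (11 higher, 1 lower), beside 57.4% of all genes in that refit (28.6% higher, 28.7% lower). CDH3, which encodes P-cadherin, averaged 409 ± 20.6 CPM in LINC00665 libraries and 0.510 ± 0.119 CPM in Vector libraries, a log2 fold change of 9.81 ± 0.24 (SE) with an edgeR adjusted p of 1e-07. SLC44A4, a choline transporter family member, had 0 Vector counts and was at least 177-fold higher in LINC00665 libraries. CD70, a ligand of the tumour necrosis factor family, stood out among the 4 that were lower, at 0.427 ± 0.088 CPM in LINC00665 libraries and 27.4 ± 5.70 CPM in Vector libraries, a log2 fold change of -5.81 ± 0.28 (SE). ERBB2, which encodes HER2, averaged 74.7 ± 8.73 CPM in LINC00665 libraries and 97.4 ± 27.0 CPM in Vector libraries and missed the threshold (edgeR adjusted p = 0.41). Without Vector replicate 3 it passed, with a log2 fold change of -0.43 and an adjusted p of 0.032. Its relative ERBB3 had a log2 fold change of 1.36.

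**Figure D3:**
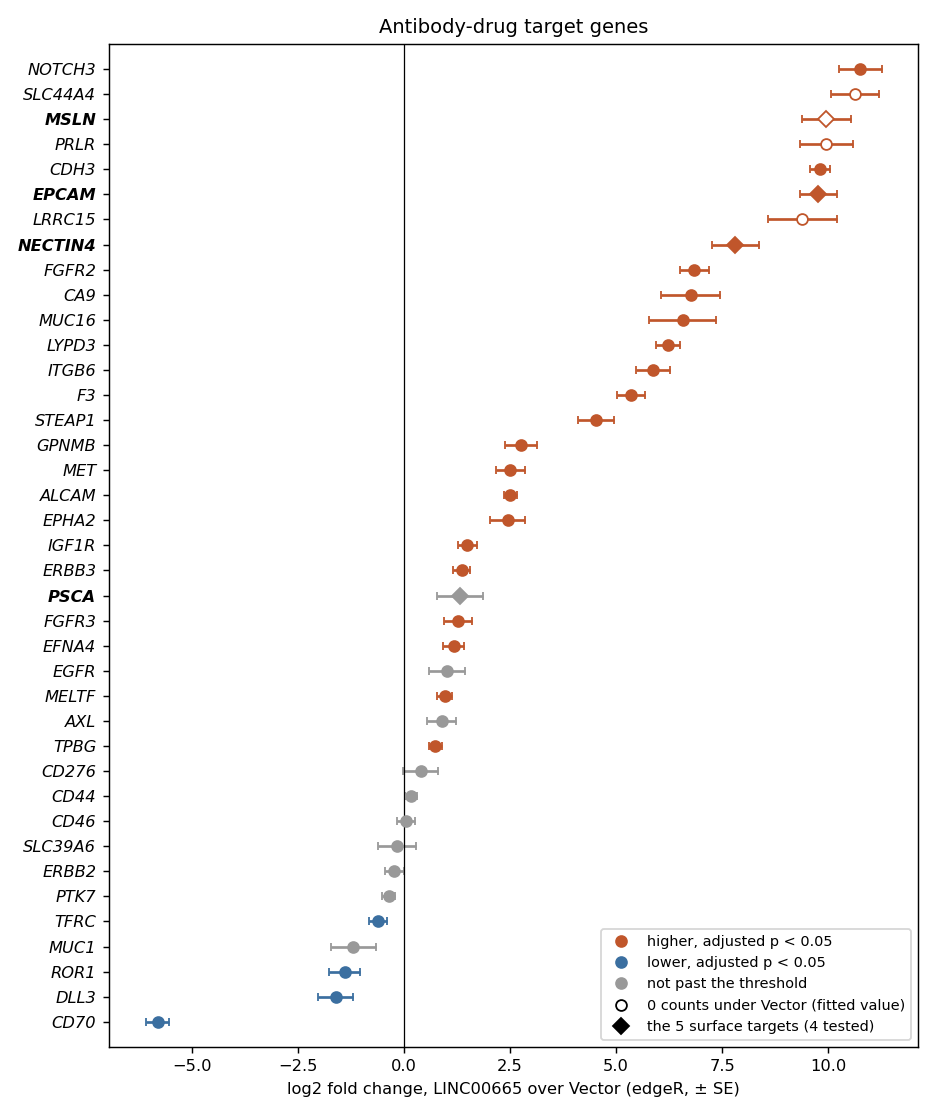
edgeR log2 fold change of LINC00665 over Vector, with its standard error, for the 4 tested surface target genes and for other tested antibody-drug target genes; diamonds mark the 4, colours give the call at an adjusted p under 0.05, and open symbols are fitted values of genes with 0 Vector counts. The 3 called genes of the 5 lie far to the higher side, PSCA misses the threshold, and CD70 at -5.81 is the lowest.

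A conjugate also depends on uptake and on the drug's own target and export. Of 22 genes listed for the handling of antibody-drug payloads, all were tested, with 7 higher, 6 lower and 9 not past the threshold. The share called was 59.1%, beside 63.5% over all tested genes, and the median log2 fold change was 0.18. The lysosomal transporter SLC46A3, which moves certain payload products out of the lysosome, had 1 Vector count, and the ratio of summed counts was 347, with an exact 95% binomial interval of 61.9 to 13700. Its fitted log2 fold change was 8.15, and 9.99 without Vector replicate 1, which holds that count. SLFN11, known for its link with sensitivity to DNA-damaging drugs, averaged 25.9 ± 4.07 CPM in LINC00665 libraries and 143 ± 33.6 CPM in Vector libraries, a log2 fold change of -2.29 ± 0.22 (SE) with an edgeR adjusted p of 4.1e-05. ABCB1, a drug export pump, had 0 counts in LINC00665 libraries and 79 in Vector libraries, and was at least 29.7-fold lower in LINC00665 libraries. ABCG2, another export pump, went the other way, at 2.39 ± 0.424 CPM in LINC00665 libraries and 0.727 ± 0.466 CPM in Vector libraries, a log2 fold change of 1.87, which was 2.52 without Vector replicate 3. CLTC, the clathrin heavy chain of endocytic vesicles, had a log2 fold change of -1.33, and the tubulin gene TUBB6 of -1.75. The tubulin genes did not move one way: TUBB2B averaged 51.8 ± 4.25 CPM in LINC00665 libraries and 0.798 ± 1.02 CPM in Vector libraries, a log2 fold change of 6.22, which was 8.08 without Vector replicate 2. Its reads may be shared with the near-identical TUBB2A, which leaves its counts uncertain.

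**Figure D4:**
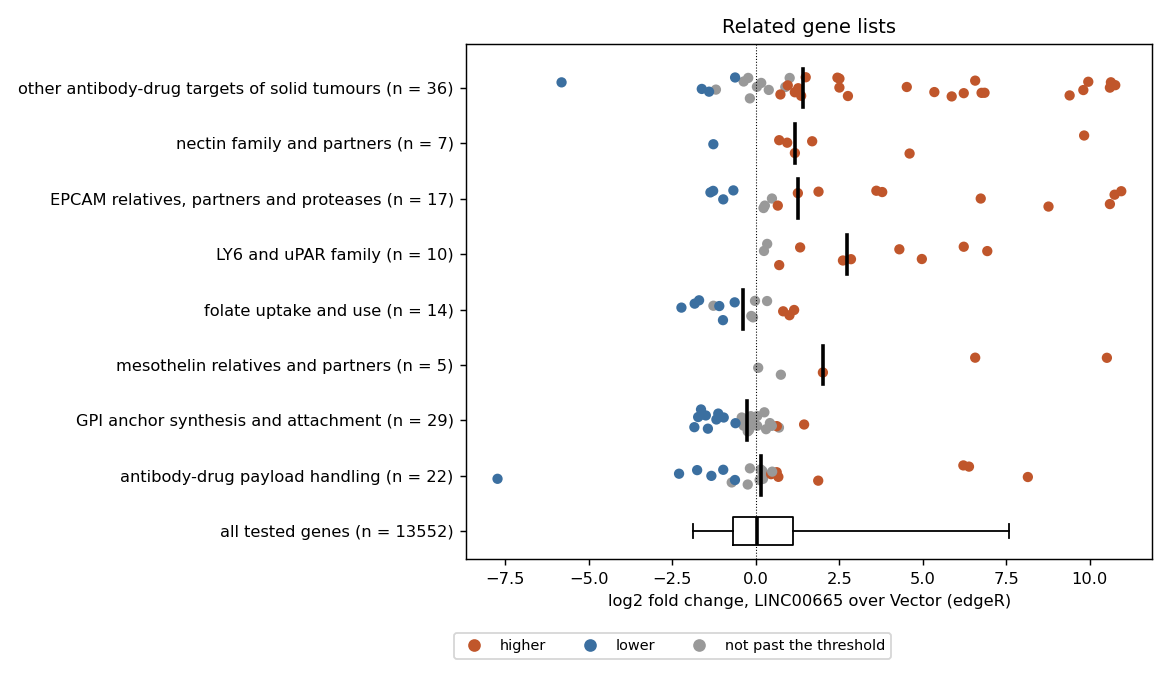
edgeR log2 fold change of LINC00665 over Vector for the tested genes of 8 related lists, 1 point per gene coloured by its call, with the list median as a black bar. The box at the bottom gives the median, quartiles and, as whiskers, the 5th and 95th percentiles of all 13552 tested genes. The folate and GPI anchor lists have medians below 0, at -0.38 and -0.27.

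Likeness of pattern was measured as the root mean square difference of centred log2 CPM over the 6 libraries, for the 4 genes that passed the filter. The values closest to NECTIN4 were those of GPR173 (0.10), AVPI1 (0.13) and XAF1 (0.14), and 329 genes lay within 0.5. For MSLN they were TOX (0.051), ARL14 (0.056) and CADM1 (0.074), with 317 genes within 0.5. EPCAM had 14 genes within 0.5, led by CDH13 (0.33), MMP2 (0.34) and KCNG1 (0.37). PSCA had 803, led by SETBP1 (0.13), PTPRS (0.13) and SPRED3 (0.15). The prior count of 2 draws values near 0 together, which limits what likeness means for these genes. AVPI1 had 86, 54 and 65 Vector counts and a ratio of summed counts of 43.4, against 276 for NECTIN4. TOX, ARL14 and CADM1, like MSLN, had 0 Vector counts. The measure rests on 6 points that share their library and label, and describes these libraries alone.

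Markers of other cell types were counted beside the surface targets. The 8 fibroblast markers summed to 230 to 262 CPM in LINC00665 libraries and 2.19 to 4.40 CPM in Vector libraries, with 5 of 6 tested genes higher, 3 of them with no Vector library over the filter level. The 5 endothelial markers summed to 10.6 to 13.0 CPM in LINC00665 libraries and 0.30 to 1.10 CPM in Vector libraries, with 3 of 3 tested genes higher, 2 of them with no Vector library over the filter level. The 7 leukocyte markers summed to 25.5 to 35.5 CPM in LINC00665 libraries and 11.1 to 17.8 CPM in Vector libraries, with 3 of 3 tested genes higher, 1 of them with no Vector library over the filter level. These counts stand beside 34.2% of all tested genes called higher. CD68, which carried most of the leukocyte sums, lost its call with the replicate number as a block (edgeR adjusted p = 0.060), without LINC00665 replicate 2 (0.099), without Vector replicate 1 (0.052) and with limma on log2(FPKM + 0.1) (0.0501). PTPRC, the common leukocyte antigen, was at 0 in LINC00665 libraries, and MS4A1, a B cell marker, was at 0 in all 6. The part of these markers in the differences of the 5 genes was not tested.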

How the data were processed

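Total RNA (TRIzol) was made into Illumina TruSeq libraries, per the labels' protocols, and processed with HISAT2 2.0.4 and hg38, per the submitters' processing notes. How reads were counted, and whether by strand, is not given in the sources used here. The authors' deposited table lists expected counts, not normalised, for 20289 genes, per the file headers. It also lists FPKM values, which the authors normalised for length and depth, per the file headers.

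Rounded expected counts passed through filterByExpr and TMM scaling to the quasi-likelihood test of edgeR 4.0.16 (R 4.3.3), without covariates. P-values were Benjamini-Hochberg adjusted over 13552 genes, with 0.05 as the threshold. CPM is the count per 1000000 of the library total. Standard errors were derived from the F statistic. A group at 0 counts gets a bound against 3 counts over the group, and 1 to 3 counts an exact 95% binomial interval, both for counting error only. The bound takes the counts of the other group as exact. Likeness used log2 CPM with a prior count of 2. Positions are from GENCODE v29, and promoters from RefSeq.

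The members and lists were chosen with earlier results of these data known. Named genes were the 5 members, up to 6 tested genes per list with the smallest p, close paralogs and partners, and the 3 genes most like each tested member. The nearest protein-coding genes, ERBB2, ERBB3, SLC44A4, ABCB1, ABCG2, LHX1, GPAA1, CD59, PLAUR and some further list genes were named after their values were seen, and some genes chosen by the rule are not reported here. Genes used in the check for sample mix-ups are not reported. The test was checked on simulated data in which far fewer genes changed, and by smaller folds than those of EPCAM, MSLN and NECTIN4. That check therefore does not cover a difference as wide as the one here. Chi-square per degree of freedom between libraries of a label was 9.85 to 116, so none was treated as a duplicate. Alternatives were DESeq2 1.42.0, limma 3.58.1 (voom, and trend on log2 FPKM with a pseudocount of 1 or 0.1), other scalings and filters, the replicate number as a block, and leaving out each library. Figures used matplotlib 3.10.9.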

Additional observations from a re-analysis of the deposited data

How the results depend on the processing

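EPCAM, MSLN and NECTIN4 kept their direction and their calls in each of the 14 alternatives in which they were tested. None of them had a Vector library over the filter level of 0.511 CPM, so these alternatives are no separate support for their direction. The log2 fold change ran from 1.28 to 9.66 for NECTIN4 and from 6.14 to 11.01 for EPCAM. Both were lowest on log2(FPKM + 1). A filter at a mean of 1 CPM in both groups left no surface target gene to test. The count of genes called over the table ran from 6472 to 9258, against 8611. Of the 5 genes, 3 were called in every alternative that tested them, except that limma-voom and the fit without Vector replicate 2 called 4. PSCA passed with limma-voom (log2 fold change 1.46), and its values with 1 library left out ran from 0.94 to 1.996. At a mean of 1 CPM in both groups, 20 of the other antibody-drug targets were tested and 12 called. The share of all genes called there was 57.4%. The main fit tested 36 of these targets and called 27, beside 63.5% of all tested genes. With total-count scaling 46.7% of calls were higher, against 53.8%.

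Directions that reversed belonged to 2 genes that were not past the threshold. PCSK7 (log2 fold change 0.08) was -0.080 with total-count scaling and -0.00020 on log2(FPKM + 1), and with 1 library left out it ran from -0.094 to 0.294, negative without LINC00665 replicate 3 and without Vector replicate 3. CIAO3 (-0.11) ran from -0.27 to 0.086 with 1 library left out, positive without Vector replicate 3. The cause was not tested. Of 108 other named genes with a test, 96 kept call and direction in every alternative run.

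With the replicate number as a block 7924 genes were called and no call among the 5 genes changed. Deviations of same-numbered libraries correlated at 0.15, -0.13 and -0.15, so the numbers were not taken as pairs. Depth limits FOLR1 and PSCA, which had at most 25 counts in a library.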
